A study of Caenorhabditis elegans with 2 samples.

Results

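The genes described here are the 53 protein-coding genes of Caenorhabditis elegans, of 19973 on the nuclear chromosomes, whose names begin with snr, snrp, lsm, prp, rsp, rnp, sap or uaf. Most encode proteins of the splicing machinery, and all 53 are called splicing genes below, although the name prefixes also take in some RNA-binding proteins of other steps, such as LSm1 of messenger RNA decay. Of these, 14 encode Sm or LSm proteins (7 snr and 7 lsm genes) and 39 encode SR proteins (8 rsp genes) or other factors (13 prp, 9 rnp, 5 snrp, 2 sap and 2 uaf genes). At each gene the measurement was the position of the nearest peak of SNPC-4 in chromatin immunoprecipitation with sequencing (ChIP-seq). The samples were 2 biological replicates of a single group, whole first-stage (L1) larvae of both sexes from strain OP179, which carries unc-119(ed3) and the integrated transgene wgIs179 for eGFP-tagged snpc-4. Each replicate was compared by the authors with a control alignment that is not analysed here, and no second genotype or stage was available, so genes are compared with genes. Every sample is a pool of whole animals, so a peak cannot be assigned to a tissue. No read numbers come with the peak lists, so the depth behind each peak is unknown.

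SNPC-4 is the worm counterpart of SNAP190, the DNA-binding subunit of SNAPc, a complex that recognises the proximal promoter element of genes for small nuclear RNAs (snRNAs). An snRNA works only as a particle with proteins (snRNP). Sm proteins form a ring on most spliceosomal snRNAs, LSm proteins form a related ring on U6 snRNA or, in another combination, on messenger RNA that is to be degraded, and further proteins are specific to the U1, U2, U4/U6 or U5 particle. SR proteins carry arginine and serine repeats, bind exons and help the particles to find splice sites. The genes for the protein partners of snRNAs are transcribed by RNA polymerase II as ordinary messenger RNA genes. In worms many genes lie in operons, in which a shared promoter precedes the first gene.

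A gene was counted as having a peak when any of its annotated transcripts started no more than 500 bp from a summit (coordinates on build ce11). In the authors' thresholded list of 2347 peaks, 20 of the 53 splicing genes had a summit (37.7%, exact 95% binomial interval over genes 24.8 to 52.1%). Of all protein-coding genes 8.35% did, and of the 19920 outside the set 1648 did (8.27%). The 20 genes rest on 18 peaks, because rsp-1 and rsp-2 share a peak and so do snr-3 and rsp-5. In the pooled relaxed list of 30000 peaks the counts were 38 of 53 splicing genes (71.7%) against 37.9% of all protein-coding genes. The relaxed list of replicate 1 gave 35 of 53 (66.0%) against 38.4%, and that of replicate 2 gave 43 of 53 (81.1%) against 38.7%. In each of these 4 lists the share of splicing genes was above that of protein-coding genes in general. No test was made of these shares, and intervals over genes cover counting error only.

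The classes differed in their shares. Among Sm genes 5 of 7 had a thresholded summit (71.4%, exact interval 29.0 to 96.3%), and among SR genes 6 of 8, on 5 peaks (75%, 34.9 to 96.8%). LSm genes had 3 of 7 (42.9%, 9.9 to 81.6%) and snrp genes 2 of 5 (40.0%, 5.27 to 85.3%). The rnp genes had 2 of 9 (22.2%, 2.81 to 60.0%), the prp genes 1 of 13 (7.69%, 0.195 to 36.0%), the sap genes 1 of 2 and the uaf genes 0 of 2. The intervals of the snrp, rnp, prp, sap and uaf genes include the 8.35% of all protein-coding genes. Sm and LSm genes together had 8 of 14 (57.1%, 28.9 to 82.3%), against 12 of 39 SR and other genes (30.8%, 17.0 to 47.6%). These intervals overlap. The order of these groups also depends on the window, because within 250 bp the counts were 2 of 14 (14.3%) and 9 of 39 (23.1%), against 5.42% of all protein-coding genes. With each summit given only to its closest gene they were 2 (14.3%) and 8 (20.5%), against 5.5%. Without the SR genes, the other 31 factors had 6 (19.4%, 7.45 to 37.5%).

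**Figure D1:**
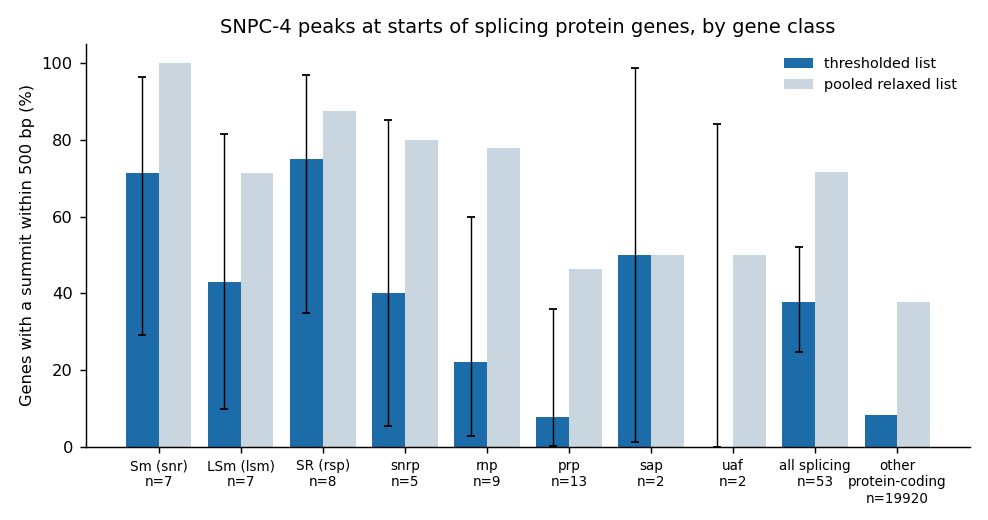
Share of genes with a summit within 500 bp of a transcript 5′ end, in percent, for 8 classes of splicing gene, all 53 together and the other 19920 protein-coding genes, in the thresholded list (dark bars, with exact 95% binomial intervals over genes) and the pooled relaxed list (light bars). The Sm and SR bars of the thresholded list stand above 70%, the prp bar at 7.69% and the bar of the other protein-coding genes at 8.27%.

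The signal of a peak is the authors' own enrichment value, on a scale that is not given, and it is compared here only within a list. Among the 20 splicing genes the thresholded signal had a median of 58.8, against 55 for the other 1648 protein-coding genes with a summit. Its quartiles were 46.9 and 78.4, against 41.5 and 82.7. Apart from snr-4, no splicing gene exceeded 98.7, and all but snr-4 ranked at 425 or lower in the list. All 20 genes had a summit of replicate 1 and one of replicate 2 within 100 bp of the thresholded summit. The thresholded list was derived from the same replicates by their reproducibility, so this is partly built in.

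snr-4, which encodes the Sm protein D2, stood apart from every other splicing gene. Its nearest summit had signal 3166 and rank 14 in the thresholded list. In replicate 1 its signal was 1056 (rank 21), and in replicate 2 it was 2124 (rank 14). The summit lay 336 bp upstream of snr-4 (chrV:11978508-11979723, minus strand) but 59 bp upstream of C52E4.8, an annotated snRNA gene on the opposite strand (chrV:11980118-11980261). It falls inside an exon of the non-coding gene C52E4.14. This was the only one of the 20 genes with an snRNA, SL RNA, snoRNA or tRNA start within 250 bp of its summit. With the peak assigned to the snRNA gene, 19 of 53 splicing genes had a summit (35.8%), against 8.04% of protein-coding genes treated in the same way. The window of 101 bases around this summit is shown because it holds the highest signal at any splicing gene. It was read from the RefSeq sequence of the ce11 assembly (WBcel235) and is written on the strand of snr-4, with the motif TATAAA in capitals.
snr-4, chrV:11980009-11980109, minus strand: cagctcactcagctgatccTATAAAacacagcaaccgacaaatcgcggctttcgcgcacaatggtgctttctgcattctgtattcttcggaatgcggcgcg

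The other Sm genes had peaks of ordinary height, and their signals are given for the thresholded list, replicate 1 and replicate 2. snr-3, for Sm protein D1, had signal 58.8 (thresholded), 27.2 (replicate 1) and 31.9 (replicate 2). Its summit lay 230 bp upstream of snr-3 and 174 bp upstream of rsp-5, an SR protein gene that starts 404 bp away on the other strand, so the peak sits between an Sm gene and an SR gene. snr-2, for Sm protein B, had 48.3 (thresholded), 16.6 (replicate 1) and 31.8 (replicate 2), at 334 bp upstream. That summit is closer to W08E3.4, at 132 bp upstream of it. snr-6, for Sm protein E, had 38.3 (thresholded), 18.2 (replicate 1) and 20.8 (replicate 2), at 260 bp upstream, and no other protein-coding start lay within 500 bp. snr-1, for Sm protein D3, had the lowest signal of the 20 genes, 32.8 (thresholded), 14.2 (replicate 1) and 16.6 (replicate 2). The lowest signal in the whole thresholded list was 32.3, and the snr-1 summit, 416 bp upstream, is closer to snx-13 (195 bp). snr-7, for Sm protein G, and snr-5, for Sm protein F, had no thresholded summit. At snr-7 the relaxed lists held a summit upstream, at -287, -300 and -297 bp, with signal 27.4 (pooled), 7.56 (replicate 1) and 17.5 (replicate 2). At snr-5 the highest signals were 7.43 in the pooled list, 7.99 in replicate 1 and 5.21 in replicate 2. All 7 Sm genes had a pooled relaxed summit, against 37.9% of all protein-coding genes. The one at snr-5 ranked 25793 of 30000, and the one at snr-4 is the peak beside the snRNA gene.

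Among LSm genes lsm-7, lsm-5 and lsm-1 had a thresholded summit. LSm5 and LSm7 belong to both LSm rings, while LSm1 is the subunit that marks the ring of messenger RNA decay. lsm-7 had signal 65.7 (thresholded), 31.8 (replicate 1) and 34.2 (replicate 2), 222 bp upstream and 77 bp upstream of dnc-1, a dynactin gene on the other strand. lsm-5 had 58.0 (thresholded), 33.2 (replicate 1) and 24.1 (replicate 2). Its summit was 461 bp upstream, the farthest of the 20. lsm-1 had 46.5 (thresholded), 20.7 (replicate 1) and 21.3 (replicate 2), at 313 bp upstream. It shares the peak with rps-9, the gene of a ribosomal protein, whose start is 275 bp away. lsm-6 lay just outside the window. Its nearest thresholded summit was 530 bp downstream of its start, beyond the end of the gene. No summit of replicate 2 lay within 100 bp of it. The highest relaxed summit within the window ranked 2480 in the pooled list (signal 31.0), 1546 in replicate 1 (20.7) and 6375 in replicate 2 (10). These summits lay at different places, -121, -194 and 133 bp in the same order of lists. lsm-4 had relaxed summits of 9.24, 4.39 and 4.86 in the pooled, replicate 1 and replicate 2 lists. lsm-3 had a summit only in the list of replicate 2 (6.75), and lsm-8, for the subunit that marks the nuclear ring, had none in the 4 lists.

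SR protein genes were the class with the largest share in the thresholded list. rsp-1 and rsp-2, which encode SR proteins and start 407 bp apart on opposite strands, share a peak with signal 98.7 and rank 425, with 27.9 in replicate 1 and 66.7 in replicate 2. The summit lay 128 bp upstream of rsp-1 and 279 bp upstream of rsp-2. rsp-5 shares the peak of snr-3, described above. rsp-3, the homolog of the human splicing factor SF2/ASF, had 50.8 (thresholded), 17.5 (replicate 1) and 29.4 (replicate 2), at 251 bp upstream and closer to spin-4 (145 bp). rsp-7 had 47.1 (thresholded), 22.2 (replicate 1) and 27.9 (replicate 2), at 282 bp upstream. The rsp-7 summit also lies 298 bp upstream of snu-13, the gene of a protein of the U4/U6.U5 particle, and 27 bp inside the non-coding gene M28.13. rsp-6 had 35.1 (thresholded), 23.0 (replicate 1) and 15.1 (replicate 2), at 191 bp upstream. It ranked 1339 in replicate 1 but 3134 in replicate 2, so it was not among the 2347 highest peaks of the second. rsp-4 had only 1 relaxed summit, of signal 4.38 in replicate 2. rsp-8 had relaxed summits of 7.92, 9.38 and 4.25 in the pooled, replicate 1 and replicate 2 lists, and its nearest thresholded summit was 583 bp away.

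**Figure D2:**
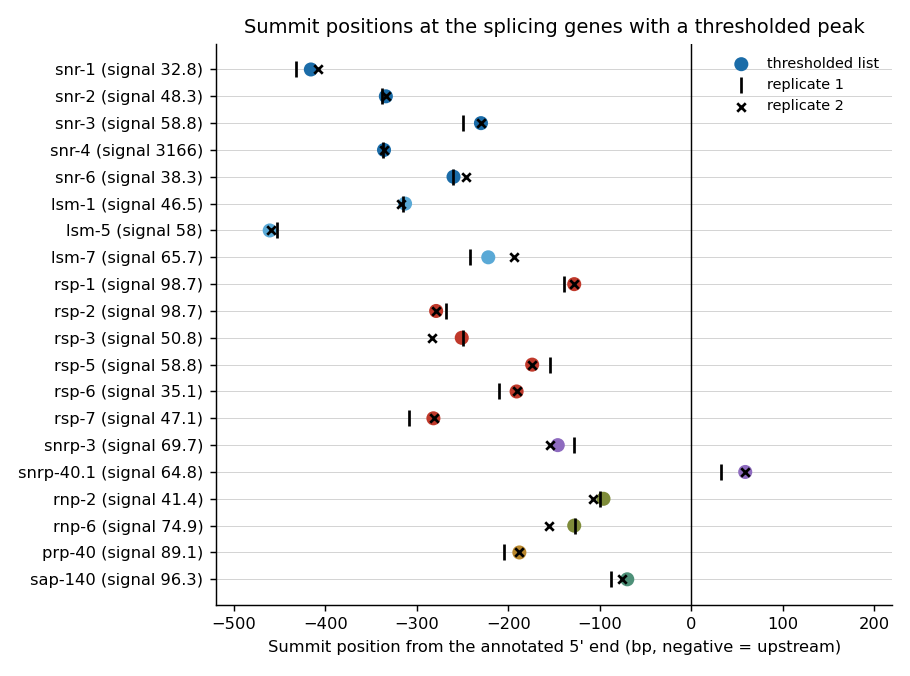
Position of the summit relative to the nearest annotated 5′ end of the named gene, in bp, at the 20 splicing genes with a thresholded summit, with the thresholded signal beside each name; filled circles are the thresholded list (coloured by class), bars replicate 1 and crosses replicate 2. The summits of snrp-40.1 lie downstream and those of the other 19 genes upstream.

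The remaining 6 genes with a summit encode proteins of the U1, U2 or U5 particle or factors that work with them. sap-140, for a U2 snRNP-associated protein, had 96.3 (thresholded), 58.9 (replicate 1) and 41.0 (replicate 2), at 70 bp upstream. prp-40, whose yeast homolog is a U1 snRNP protein, had 89.1 (thresholded), 51.3 (replicate 1) and 38.2 (replicate 2), at 188 bp upstream, and was the only one of 13 prp genes with a thresholded summit. rnp-6, the homolog of a poly(U)-binding splicing factor, had 74.9 (thresholded), 21.3 (replicate 1) and 54.5 (replicate 2). Its summit is 128 bp upstream but only 33 bp upstream of rde-10, a gene of RNA interference on the other strand. For the U1 particle, snrp-3, which encodes U1 protein C, had 69.7 (thresholded), 41.3 (replicate 1) and 29.8 (replicate 2), at 146 bp upstream with no other protein-coding start within 500 bp. rnp-2, which encodes a homolog of the A protein of the U1 particle, had 41.4 (thresholded), 19.5 (replicate 1) and 21.3 (replicate 2), at 96 bp upstream. snrp-40.1, for the 40 kDa protein of the U5 particle, had 64.8 (thresholded), 19.5 (replicate 1) and 39.6 (replicate 2). Its summit is 59 bp downstream of the annotated start, inside an exon. The replicates ordered the peaks differently. Of the 20 genes, 12 stood higher in the ranks of replicate 1 and 8 in those of replicate 2. The ranks differed more than 2-fold in favour of replicate 1 at sap-140, prp-40, snrp-3, lsm-5 and rsp-6 (5 genes), and in favour of replicate 2 at rsp-1, rsp-2, rnp-6 and snrp-40.1 (4 genes).

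The windows around 4 of the 5 highest peaks after that of snr-4 are shown for comparison with the snRNA-side window above. The window of rnp-6 (signal 74.9, above snrp-3) is not shown, and it holds no TGACGC. Each runs 50 bases to each side of the summit and on the strand of the named gene. Capitals mark TGACGC or its reverse complement GCGTCA.
rsp-1, chrII:11453184-11453284, plus strand: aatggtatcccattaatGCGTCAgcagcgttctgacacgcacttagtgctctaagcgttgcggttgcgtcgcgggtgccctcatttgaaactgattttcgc
sap-140, chrIII:7499618-7499718, plus strand: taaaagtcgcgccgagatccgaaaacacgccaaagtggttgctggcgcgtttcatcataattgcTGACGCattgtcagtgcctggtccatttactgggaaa
prp-40, chrIII:9521837-9521937, plus strand: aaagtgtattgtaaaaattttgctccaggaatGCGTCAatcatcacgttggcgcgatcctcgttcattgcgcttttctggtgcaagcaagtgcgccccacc
snrp-3, chrIV:8687906-8688006, minus strand: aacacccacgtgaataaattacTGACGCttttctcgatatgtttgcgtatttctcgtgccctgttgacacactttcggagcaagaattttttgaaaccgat

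These 4 windows share the motif in capitals, which was picked out after they had been seen, and the rnp-6 window, not shown, lacks it. Searched on both strands, TGACGC was within 50 bp of the summit at 8 of the 18 peaks of splicing genes (44.4%), and at 4 of the 13 that are not shown above (30.8%). Those 4 were at lsm-5, lsm-7, rsp-3 and snr-6. In windows 500 bp to the left and right of the 18 summits it occurred in 1 and in 0. Over the 1261 peaks at all protein-coding starts it was in 156 (12.4%), with 20 (1.59%) and 23 (1.82%) in the windows 500 bp to the left and right, and it was in 2.13% of 19973 promoter windows of 101 bases centred 177 bp upstream. It was in 0 of 54 peaks at bound snRNA and SL2 RNA genes. The motif was thus more frequent at the summits of protein-coding genes than beside them, and it was seen at none of the small RNA summits. No test was made, and a match is a description of letters and not a binding site.

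The motif most frequent at small RNA promoters was about as infrequent at the peaks of splicing genes as at those of protein-coding genes in general. Among 56 snRNA and SL2 RNA genes with a thresholded summit within 250 bp, CGGAACCC was the most frequent motif of 8 bases in the 100 bases upstream, present on either strand at 20 genes. It was within 50 bp of the summit at 18 of their 54 peaks (33.3%). The motif was picked at these same small RNA genes, so their shares, here and with 1 mismatch, are partly built in. CGGAACCC was at 0 of the 18 peaks of splicing genes, at 31 of the 1261 peaks at protein-coding starts (2.46%) and in 0.105% of promoter windows. With 1 mismatch allowed the counts were 32 of 54 (59.3%), 1 of 18 (5.56%, the lsm-1 peak) and 78 of 1261 (6.19%). The snRNA-side peak at snr-4 had no match either. TATAAA was at 2 of the 18 peaks (11.1%), those of snr-4 and snr-2, at 9 of the 54 small RNA peaks (16.7%), at 5.79% of the 1261 and in 13.0% of promoter windows.

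Summits lay upstream of the annotated 5′ end at 19 of the 20 splicing genes, with a median position of -226 bp and quartiles of -290 and -142 bp. For the other protein-coding genes with a summit the median was -176 bp, with quartiles of -280 and -99.8 bp, and 92.7% were upstream. Sm and LSm genes had their summits farther out, at a median of -324 bp (8 genes), than SR and other genes, at -160 bp (12 genes). Only 2 of the 8, snr-6 and lsm-5, were the closest gene to the summit, against 8 of the 12. The 8 include snr-4, whose summit is nearest to the snRNA gene, and the peak of snr-3 and rsp-5 counts in both medians. The 3 genes just inside the 500 bp limit were lsm-5 at 461 bp, snr-1 at 416 bp and snr-4 at 336 bp. Just outside were lsm-6 at 530 bp, rsp-8 at 583 bp and prp-19 at 652 bp. For 17 of the 20 genes, which rest on 18 peaks, the summit lay in intergenic sequence. The like share of all protein-coding genes with a summit was not counted.

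Many of these peaks lie between genes that diverge. For 15 of the 20 genes another protein-coding start lay within 500 bp of the summit. At rsp-6 that start, of C33H5.13, is on the same strand, and a peak shared by a pair of splicing genes counts for both. The like share over all protein-coding genes with a summit was not counted. For 10 of the 20 the splicing gene itself was the nearest annotated gene. Of all 1668 protein-coding genes with a summit, 1099 were the closest gene to one. Among the 53 genes, 27 (50.9%) had a protein-coding gene starting within 1000 bp upstream on the other strand and no same-strand gene ending within 500 bp upstream, and 16 of these 27 had a summit (59.3%). Of all protein-coding genes 17.5% had this arrangement, and 24.3% of those had a summit. For the 10 genes with neither kind of neighbour the count was 1 (snr-4), against 4.84% of 12860 protein-coding genes. The higher share of splicing genes thus went with a more frequent divergent arrangement, and it was also higher within that arrangement. The part of the arrangement in the difference was not tested.

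A further 16 splicing genes (30.2%, against 18.1% of all protein-coding genes) followed a same-strand gene that ends within 500 bp upstream, the spacing seen in operons. No operon annotation was used. Of these, 3 had a summit (18.8%, against 5.42%), namely lsm-5, rsp-6 and snrp-3, with gaps of 483, 475 and 466 bp in that order. Of the other 13, 11 had a thresholded summit at the first gene of the tandem row (84.6%). For all protein-coding genes in such a row and without a summit of their own, 645 of 3419 had one there (18.9%). This count was added after the peaks had been seen. rnp-3, a homolog of U2B″, begins 73 bp beyond the end of rnp-2, whose start has the peak of signal 41.4 described above. rnp-7, which encodes the 70 kDa protein of the U1 particle, follows syf-2, a splicing factor gene, by 5 bp, and the peak at syf-2 had signal 100. That summit lay 378 bp upstream of syf-2 and was closer to K04G7.1 (-219 bp). prp-38 follows plrg-1, another spliceosome gene, by 107 bp, with a peak of 142 at plrg-1.

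A summit at the first gene was likewise found for lsm-8 behind sqd-1 (signal 100 at sqd-1), lsm-6 behind ubc-3 (75.3), lsm-3 behind Y62E10A.23 (41.5), prp-39 behind hmgs-1 (75), prp-3 behind smrd-1 (36.5) and rnp-4 behind snfc-5 (37.7). It held for snrp-40.2 with a row of 4 genes ahead of it that begins with suco-1 (104), and for snrp-27 with a row of 5 that begins with ran-4 (32.5). The nearest thresholded summit to snrp-40.2 was 14633 bp away, and the ran-4 signal is close to the lowest in the list, 32.3. The exceptions were sap-49 and snrp-200. Counting a summit at the gene or at the first gene of its row, 31 of 53 splicing genes had one (58.5%), against 11.6% of all protein-coding genes. This count too was added after the peaks had been seen. Some of the 31 genes share a peak, as rnp-3 does with rnp-2. Whether these genes are transcribed from the first promoter was not tested.

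**Figure D3:**
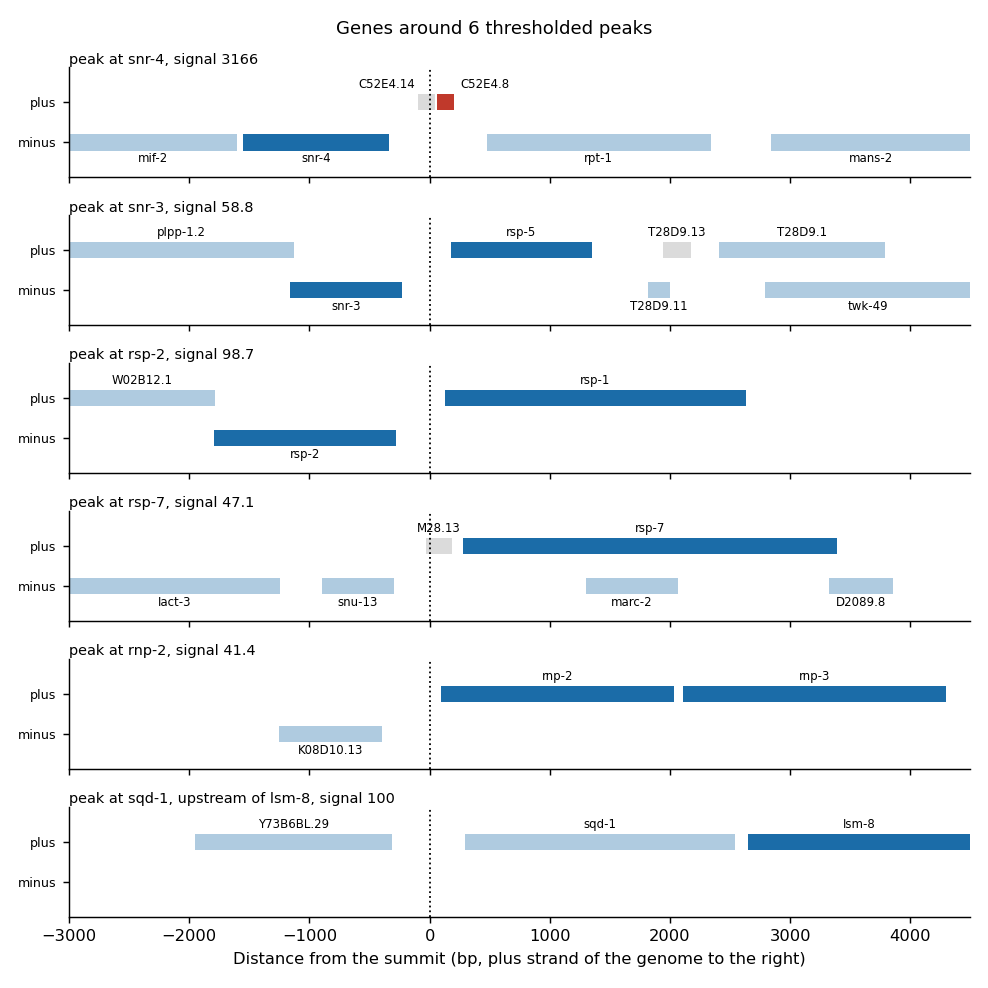
Genes around 6 thresholded summits (dotted line), drawn by strand against distance from the summit in bp; dark blue boxes are splicing genes of the set, light blue other protein-coding genes, red an snRNA gene and grey non-coding genes. From the top the summit lies beside C52E4.8 at snr-4, between snr-3 and rsp-5, between rsp-2 and rsp-1, between snu-13 and rsp-7, ahead of rnp-2 and rnp-3, and ahead of sqd-1 and lsm-8.

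Of the 33 splicing genes without a thresholded summit, 18 had one within 500 bp in the pooled relaxed list and 12 in that list and in both replicates. Positions were not matched between the lists here, so the summits counted for a gene need not be the same peak. At rnp-4, for example, they lay at 340 bp (pooled), 27 bp (replicate 1) and 340 bp (replicate 2). In the pooled list 37.9% of all protein-coding genes had a summit, with or without a thresholded one. The shares among all protein-coding genes without a thresholded summit were not counted. The 12 are snr-5, snr-7, lsm-4, lsm-6, rsp-8, prp-4, prp-21, prp-31, rnp-1, rnp-4, rnp-5 and uaf-2. Their highest pooled signals ran from 7.43 at snr-5 to 31.0 at lsm-6, below the lowest thresholded signal of 32.3. uaf-2, for the small subunit of U2AF, which binds the 3′ splice site, had 19.8 (pooled), 18.3 (replicate 1) and 6.13 (replicate 2), and prp-21 had 22.3, 18.0 and 8.07 in the same order of lists. By rank the highest summits at both stood higher in replicate 1, at 1854 and 1910, than in replicate 2, at 17081 and 10052. In the same order of lists they lay at -78, 14 and 305 bp from a start of uaf-2. At prp-21 they lay at -243, -241 and -326 bp. The summits were not matched by position, so these ranks may belong to different peaks. prp-8, for the central protein of the U5 particle, was the opposite case, with signal 39.4 and rank 772 in replicate 2 but no summit within 500 bp in replicate 1 or the pooled list. A further 6 genes had a pooled summit but not one in both replicates, prp-3, prp-38, rnp-3, rnp-7, snrp-27 and snrp-40.2, and all 6 are among the tandem genes described above. Their pooled signals ran from 7.41 at snrp-40.2 to 12.7 at rnp-7. In 8 genes a summit stood in a replicate list but not in the pooled one. They were prp-8, lsm-3, prp-39 (5.43 in replicate 1 and 6.43 in replicate 2), prp-9 (15 in replicate 2), prp-18 (15.1 in replicate 1), prp-19 (5.92 in replicate 2), rnp-8 (4.56 in replicate 1) and rsp-4. The 7 genes without a summit in any of the 4 lists were lsm-8, prp-6, prp-17, rnp-9, sap-49, snrp-200 and uaf-1. They include the U5 helicase gene snrp-200 and uaf-1, for the large subunit of U2AF. A missing peak at unknown depth does not show that SNPC-4 was absent.

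**Figure D4:**
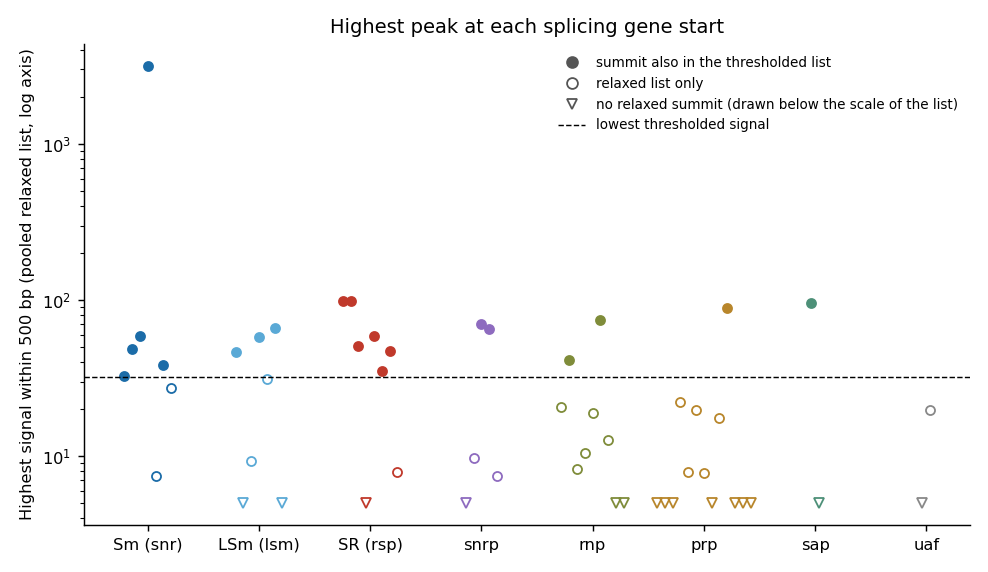
Highest signal within 500 bp of each splicing gene's 5′ ends in the pooled relaxed list (log axis), by class; filled circles also have a thresholded summit, open circles do not, and triangles mark genes with no summit in that list. The dashed line is the lowest thresholded signal, 32.3; snr-4 stands alone at 3166 and all other genes are at or below 98.7.

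Other genes of RNA processing were counted in the same way. Of 31 spliceosome genes outside the naming rule, 14 had a thresholded summit (45.2%, against 8.35% of protein-coding genes), led by plrg-1 (142), syf-2 (100), teg-1 (88.2) and mog-4 (88.2), the last a helicase gene. The plrg-1 and syf-2 peaks are the ones given above for the tandem genes prp-38 and rnp-7. Another 5 listed names were not found in the annotation. gut-2, which encodes the LSm2 subunit, was among them with signal 50.2, 27 bp upstream. Of 27 genes for splicing regulators 11 had a summit (40.7%), led by rbm-25 (205), hrpu-1 (79.1), hrpk-1 (74.5) and hrpa-1 (71.0), the last for a homolog of a human heterogeneous nuclear ribonucleoprotein. A further 3 names of the regulator list were not found in the annotation. The Integrator complex, which processes the 3′ end of snRNAs, had 5 of 11 (45.5%), with ints-4 at 145, ints-2 at 57.1, ints-8 at 52.7 and ints-9 at 47.9. Of 4 genes for proteins of trans-splicing, sna-2 (44.2) and sna-3 (41.2) had a summit. Other lists had lower shares, with 2 of 13 genes of the exon junction and RNA export (the export receptor gene nxf-1 at 63.7 and thoc-5 at 58.3), 1 of 7 SNAPc subunit genes (snpc-3.4 at 38.6) and 0 of 5 genes for snRNP assembly and the RNA cap. In this last list, of which 3 further names were not found in the annotation, 4 of 5 had a pooled relaxed summit, against 37.9% of all protein-coding genes. Among the genes named in this paragraph, the summits of syf-2, teg-1, rbm-25, hrpu-1, ints-2 and nxf-1 were closer to the start of another gene. Those closer genes were K04G7.1, mcm-10, W04D2.4, the non-coding Y41E3.459, trm-1 and C15H11.11, in that order.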

How the data were processed

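Peaks came from 2 biological replicates of 1 group. Per the deposited notes, the authors made a relaxed list of 30000 peaks from each replicate and from both pooled, each with a control alignment, and a thresholded list of 2347 by the irreproducible discovery rate. Their aligner and peak caller stay unnamed (not given in the sources used here). The deposited signal is the authors' enrichment value per peak, used within a list only. The deposited −log10 q was not used to rank peaks. Other deposited columns are coordinates and the summit distance, which gave each summit. The ce10 lists were not used here. Number of columns of other samples: 0.

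Genes and 5′ ends came from Ensembl 115 (WBcel235, the ce11 assembly), and sequence and the symbols of genes with a repeated name from RefSeq for the same assembly. Mitochondrial genes were left out. Intervals are exact 95% binomial intervals. The gene set and lists were chosen with earlier results of these data known, and no test of a list was made. The genes named are all with a thresholded summit, those below the threshold in the relaxed lists, the 3 to each side of the window limit and up to 4 per further list, and gut-2, prp-8, prp-19, lsm-3, lsm-8, uaf-1, the genes of tandem rows and neighbouring genes were added after their values were seen. Sequences are shown for the splicing genes with the highest signals among those not on chromosome I, which leaves out rnp-6, whose window has no TGACGC. The search for the nearest summit was tested on simulated data. The lists hold no replicate test, so p-values are not given. Python 3.11.15, numpy 2.4.6, pandas 2.3.3, scipy 1.17.1 and matplotlib 3.10.9 were used.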

Additional observations from a re-analysis of the deposited data

How the results depend on the processing

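The count of 20 splicing genes was between 19 and 24 with a window of 1000 bp, the outermost 5′ end only, overlap of the peak interval, and summits near small RNA starts left out. Leaving out a replicate, by taking the 2347 highest peaks of the other, gave 19 to 22 splicing genes, 7 to 8 Sm and LSm genes, 12 to 14 SR and other genes and 1606 to 1643 protein-coding genes. Of the 20 genes, 18 were kept without replicate 1 (rsp-6 and snr-1 were lost, prp-8 came in) and 19 without replicate 2 (snr-1 was lost, lsm-6, prp-21 and uaf-2 came in). Counts fell where the criterion is stricter by construction. Within 100 bp, 3 splicing genes (5.66%), 0 Sm and LSm genes, 3 SR and other genes and 357 protein-coding genes (1.79%) had a summit. Within 250 bp the counts were 11 splicing genes (20.8%), 2 Sm and LSm genes and 1082 protein-coding genes (5.42%). With the upper 1173 peaks they were 12 (22.6%), 4 and 893 (4.47%). With each summit given to the closest gene alone they were 10 (18.9%), 2 and 1099 (5.50%). In all 10 alternatives the share of splicing genes was above that of all protein-coding genes. Sm and LSm genes were above SR and other genes except within 100 bp, within 250 bp and with the closest gene alone. The median position was -146 bp within 250 bp, and the median signal 65.7. No paired analysis was possible because the samples form a single group. Depth is unknown, so the smallest detectable peak cannot be stated.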
